A study of Mus musculus with 3 samples.

Results

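The mean of the 2 arrays from SEMA3E-containing media was set against the single control array in cultured sensory neurons of the mouse, gene by gene. Primary neurons from the dorsal root ganglia of male mice, aged 8 to 10 weeks and of the outbred ICR strain, were kept for 72 h in DMEM with B27, a serum-free supplement, which all 3 media shared. The control medium held nothing more, the SEMA3E medium held recombinant SEMA3E at 1 µg/ml, and the third medium held the same SEMA3E with a SEMA3E-blocking IgG at 1 µg/ml. Each medium has 1 array, and the labels used here do not say how many animals or cultures stand behind it. The members are the genes in which both SEMA3E-containing arrays lay on the same side of control: 1679 of 17653 genes above background, 519 higher (2.94%) and 1160 lower (6.57%). With 2 arrays against 1 there is no test and no error from replicates. The spread given is the gap between the SEMA3E-containing arrays, which also differ by the IgG, and both differences use the same control array, so that an unusual control value alone would place both on one side.

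SEMA3E is a secreted semaphorin, a class of proteins first known for steering growing axons, and its receptor is plexin D1. Dorsal root ganglia hold the cell bodies of the sensory neurons that carry touch, position and pain, wrapped by satellite glia and accompanied by Schwann cells, fibroblasts and macrophages. The label names neurons, and all 25 pan-neuronal markers of the list used here lay above background in the culture, among them Tubb3 at 12589 units and Snap25 at 21761 units in the control array. Markers of other cells lay above background too, 17 of 17 for satellite glia and 17 of 19 for Schwann cells. For macrophages it was 16 of 24, with 8 below background, Csf1r, Itgam and C1qb among them. For other leukocytes it was 6 of 20. Of all 30142 genes 17653 lay above background, so the macrophage share is near the general one and the leukocyte share below it. These 2 counts do not show that such cells were present. Where cell types are mixed, fewer cells of a type and less RNA per cell cannot be told apart.

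Values are intensities of probe sets, compared as log2(value + 1), and background is the 95th percentile of vomeronasal receptor genes, 5.48 on this scale or 43.7 units. The arrays were very alike: 74.9% of the genes held an identical value on all 3, 6.56% differed from control only with the IgG, 6.14% only with SEMA3E alone, and 2.91% differed in opposite directions. An identical value does not show equal RNA, and a gap of 0 does not show precision. What produced the ties was not tested. Most members differed from control by little. Their median absolute mean difference was 0.073, with a median gap of 0.0032, and in 1369 of 1679 the gap was smaller than the mean difference. In 818 of the 1679 the gap was 0. Choosing genes with both arrays on the same side of a shared control also favours small gaps, so these counts do not measure agreement. The direction of these small differences depended on the scale. As deposited, 519 genes were higher in both and 1160 lower. After centring each array on its median, a shift of 0.0062, these counts were 1571 and 1074. Here and below, counts by any amount under centring, quantile or loess scaling leave out the 13218 genes identical on all 3 arrays. Centring lifts those genes above control in both arrays too, so 1571 is not a count over all genes.

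Larger differences were few. Both arrays were at a ratio of at least 5 to 4 (0.322 on the log2 scale) above control in 22 genes (0.125%) and below it in 36 (0.204%), together 58. At 1.5-fold there were 5 higher (0.0283%) and 8 lower (0.0453%), and at 2-fold 0 higher and 2 lower (0.0113%), Mmp13 and Mir99a. Taken as single pairs of arrays, SEMA3E and control lay at least 5 to 4 apart in 129 genes, SEMA3E with IgG and control in 156, and the SEMA3E-containing arrays in 138. At 1.5-fold these counts were 30, 36 and 24. Over all genes the mean differences had an SD of 0.060 and the differences between the SEMA3E-containing arrays an SD of 0.066. In all 58 genes the gap was smaller than the mean difference, and with both differences past the threshold on one side the choice itself favours this. Ifitm3 lay just inside the threshold (−0.323 with SEMA3E alone), and S100a8 (0.317 with the IgG) and G0s2 (−0.318 with SEMA3E alone) just outside.

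**Figure D1:**
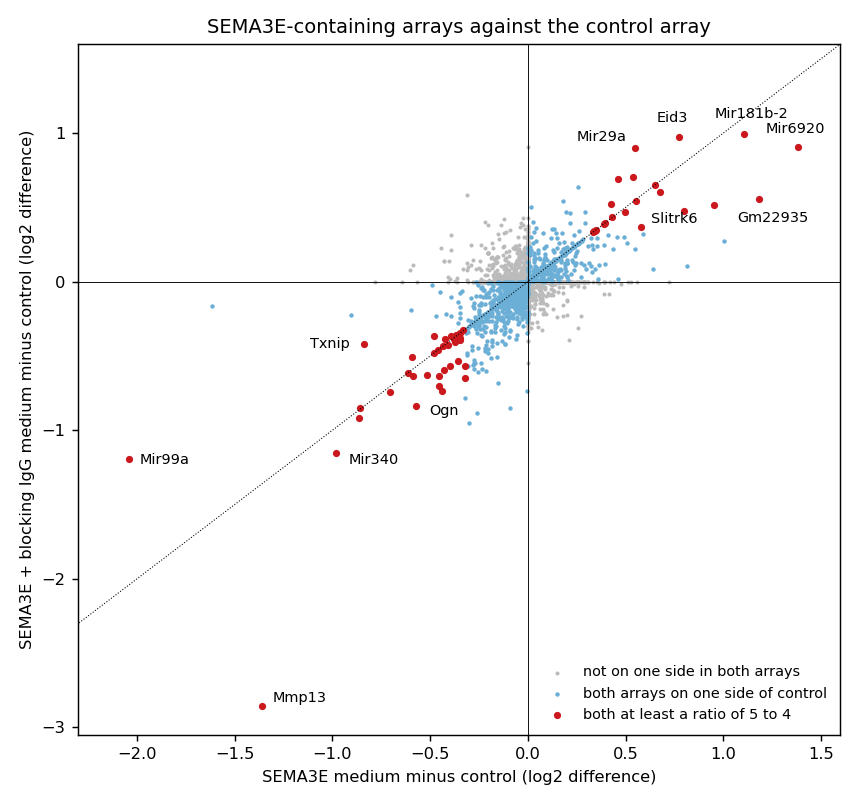
Each point is a gene above background. The x axis gives SEMA3E medium minus control and the y axis SEMA3E with blocking IgG minus control, both as log2 differences, and the dotted line marks equal differences. The 58 red points are at a ratio of at least 5 to 4 from control in both arrays, Mmp13 lies furthest down, and most genes crowd around 0.

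Protein-coding genes past this threshold were mostly lower: 20 lower and 4 higher. Together they were 0.197% of 12190 coding genes. Of all 17653 genes, 0.125% were higher and 0.204% lower, so coding genes passed no more often than genes in general. Mmp13, which encodes a collagenase (probe set TC0900000044.mm.1), read 722 units in control medium, 280 with SEMA3E and 98.9 with SEMA3E and the IgG. Both SEMA3E-containing arrays were far below control, but they also differed from each other: the differences were −1.36 and −2.86, the mean −2.11 and the gap 1.49. Sostdc1, which is secreted and blocks BMP and Wnt ligands, read 2531, 1550 and 1510 units in the same order, and its mean difference of −0.73 had a gap of only 0.037. Ogn, a small leucine-rich proteoglycan, read 1536, 1034 and 861 units, a mean of −0.70 with a gap of 0.26. In both genes the SEMA3E-containing arrays were nearer to each other than either was to control. Txnip, which binds thioredoxin and restrains glucose uptake, read 10141, 5667 and 7570 units, so that the array without the IgG was the lowest (mean −0.63, gap 0.42).

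Several of the other lower genes are known from neurons and glia. Fxyd7, a brain-type regulator of the sodium pump, read 1282, 897 and 828 units (mean −0.57, gap 0.12). Gpr37l1, a receptor of glial cells, read 833, 608 and 536 units (mean −0.55, gap 0.18). Neto1, an auxiliary subunit of glutamate receptors, read 2025 units in control and 1454 in both other arrays (mean −0.48). Pvalb, the calcium-binding protein that marks proprioceptive neurons, read 367, 282 and 280 units (mean −0.38, gap 0.011), and Cdr1 read 2590, 1967 and 1746 units (mean −0.48, gap 0.17). Pmp2, a lipid-binding protein of peripheral myelin, had −0.31 with SEMA3E alone, short of the threshold, and −0.57 with the IgG. Crym, a thyroid hormone-binding protein, had a mean of −0.37. In each of these genes both arrays were below control, and the array with the IgG was the lower one or equal.

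Ctla2a, a relative of cysteine protease propeptides, read 2452, 1806 and 1473 units (mean −0.59), and its near copy Ctla2b 318, 246 and 240 (mean −0.39). Their probes, like those of Bcl2a1a (−0.58), Speer4c (−0.57) and the histone gene H3c7 (−0.46), may read related genes, so these values are uncertain as to the member. Cited2, a co-regulator that binds EP300, read 2528, 1882 and 1938 units (mean −0.40, gap 0.043). Mmp2, a gelatinase, read 604, 475 and 465 units (mean −0.36, gap 0.033). Across the 36 genes lower by at least 5 to 4, of all kinds, the array with the IgG was further from control in 20, the array with SEMA3E alone in 9, and 7 had a gap of 0. Among the 22 higher genes the counts were 5, 9 and 8. After Mmp13 and Speer4c, Crabp2 had the widest gap of the 20 lowest named genes, with −0.15 for SEMA3E alone and −0.68 with the IgG. It and Speer4c (−0.26 with SEMA3E alone) did not pass the threshold in both arrays.

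Promoter sequence was looked at for the lower protein-coding genes because, by their choice, all lay on one side of control. RefSeq windows (GRCm38.p6, 250 bases before to 50 after the start) were matched for 14 of the 20 genes. The AP-1 motif TGANTCA, searched on both strands, was in 6 of them (42.9%), against 6.58% of 9984 protein-coding genes above background with a window and 8.97% of 27025 genes in the table. Ctla2a and Ctla2b are near copies of one another, also in this stretch. The probes of both and of Bcl2a1a may read related genes, and Ifitm3 lay just inside the threshold, so the share of 42.9% is loosely based. The stretches below lie upstream of the start and are shown 5′ to 3′ along the gene's strand, with the AP-1 match in capitals.
Mmp13 (chr9:7272439-7272513, + strand): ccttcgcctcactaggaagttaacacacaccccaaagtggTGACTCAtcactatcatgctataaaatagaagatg
Ctla2a (chr13:60936708-60936794, − strand): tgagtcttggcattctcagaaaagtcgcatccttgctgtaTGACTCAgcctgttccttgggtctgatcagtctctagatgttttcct
Ctla2b (chr13:60897544-60897630, − strand): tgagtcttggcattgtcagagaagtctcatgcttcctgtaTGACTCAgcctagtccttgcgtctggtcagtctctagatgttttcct
Bcl2a1a (chr9:88956760-88956846, + strand): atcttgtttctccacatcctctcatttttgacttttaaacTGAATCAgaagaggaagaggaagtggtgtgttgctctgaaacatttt
Ifitm3 (chr7:141010803-141010889, − strand): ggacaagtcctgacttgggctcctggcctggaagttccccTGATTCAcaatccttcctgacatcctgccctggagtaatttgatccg
Cp (chr3:19956837-19956923, + strand): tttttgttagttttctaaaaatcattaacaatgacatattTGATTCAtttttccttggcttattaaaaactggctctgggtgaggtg

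In Mmp13 the match began at position −35 relative to the start and was followed by a TATA box (TATAAA). The antioxidant motif TGACNNNGC was in 3 of the 14 genes (21.4%, against 16.7% of the expressed genes), and in Ctla2a and Ctla2b it overlapped the AP-1 match. The E-box CACGTG was in 2 (14.3% against 11.1%), TATAAA in 4 (28.6% against 9.46%) and the cAMP motif TGACGTCA in 0 (3.44% of the expressed genes). Of the 4 higher genes, 2 had a window, and Slitrk6 held TGANTCA. These matches describe letters in a window, and binding was not measured.

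Fewer protein-coding genes were higher by a ratio of 5 to 4 in both arrays. Eid3, a relative of the inhibitors of EP300 and a subunit of the SMC5-SMC6 complex, read 216 units in control medium, 370 with SEMA3E and 427 with SEMA3E and the IgG (mean 0.87, gap 0.20). Slitrk6, a neuronal membrane protein that guides innervation, read 478, 704 and 698 units (mean 0.55, gap 0.012). Gsta4, a glutathione transferase for lipid peroxidation products, read 2445, 3447 and 3390 units (mean 0.48, gap 0.024). In the last pair of genes the SEMA3E-containing arrays were almost equal and both stood above control. Clec4d, a myeloid lectin, read 104 units in control and 133 in both others (mean 0.35).

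Other genes in the 20 highest passed the threshold in only 1 of the arrays or in neither. Jag1, a Notch ligand, read 1495, 1783 and 2324 units (mean 0.45, gap 0.38), so the array with the IgG was much the higher. Ptgs2, the inducible cyclooxygenase, read 269, 329 and 371 units (mean 0.38, gap 0.17). Nqo1, a quinone reductase, read 94.3 units in control and 114 in both others (mean 0.28). Mgp, an inhibitor of matrix calcification, read 3182, 3793 and 3796 units (mean 0.25), and the matrix protein gene Tnc 1977, 2316 and 2373 (mean 0.25). Cbl, a ubiquitin ligase, had a mean of 0.38 from its brightest probe set, but its second probe set gave 0.00. Defb46 had 0.64 with SEMA3E alone and 0.08 with the IgG, and Defb39 was below background in control medium. Over all members, 37 had another probe set above background: of these other probe sets, 23 lay on the same side in both arrays, 0 on the opposite side and 25 on neither.

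**Figure D2:**
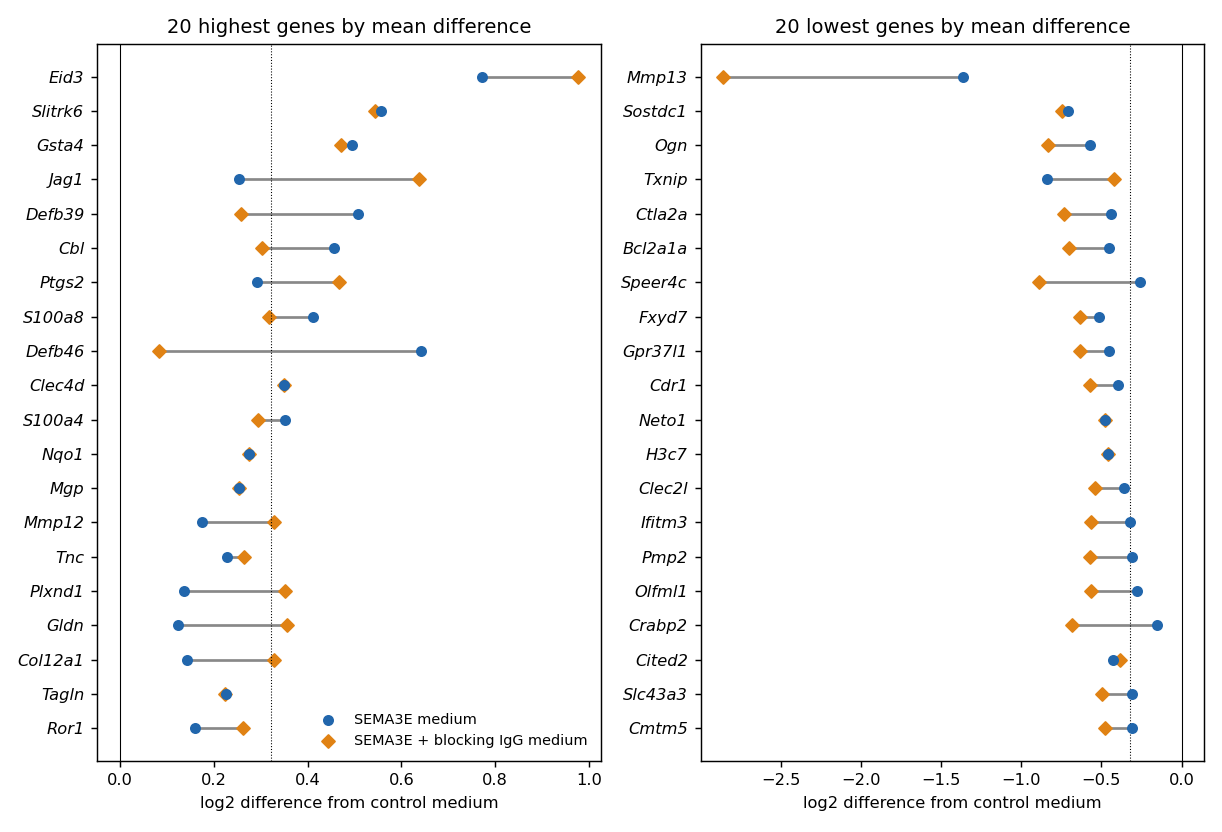
Log2 differences from control medium of the 20 highest and 20 lowest named genes, ordered by mean difference. Circles are SEMA3E medium, diamonds SEMA3E with blocking IgG, the grey bar is the gap between them and the dotted line marks a ratio of 5 to 4. Slitrk6, Gsta4, Sostdc1 and Cited2 have short bars, and Mmp13, Jag1, Defb46, Speer4c and Crabp2 long ones.

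Of 28 genes for the SEMA3E receptor and its signalling, 1 was higher in both arrays (3.57%, against 2.94% of all genes) and 2 were lower (7.14%, against 6.57%). After centring 3 were higher and 1 lower, with the 23 genes identical as deposited left out. Plxnd1, the receptor, read 1480, 1627 and 1889 units, both above control by less than the threshold in the SEMA3E array (0.14) and past it with the IgG (0.35), with a mean of 0.24 and a gap of 0.22. Cdk5, a neuronal kinase, was lower by −0.02 and −0.17, and Farp2, an exchange factor, by −0.004 in both, a sign that turned under centring. Sema3e itself was at 59.9 units on all 3 arrays.

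Several neuronal lists held more members lower than higher, by small amounts. Among 25 pan-neuronal genes 6 were lower in both arrays and 0 higher (24%). The share of all genes lower in both was 6.57%, but 15.97% in the brightest sixth of genes. The 6 included Tubb3, the neuronal tubulin (−0.16 in both), Syp, a vesicle protein (−0.12 in both), and Snap25, a fusion protein (−0.03 in both). After centring, 5 were lower and 2 higher, with the 11 genes identical as deposited left out. Of 30 genes of synaptic release 5 were lower, led by Sv2b (−0.18 and −0.16), and of 25 neurofilament and growth cone genes 4 were lower, led by Crmp1 (−0.07 in both) (16.7% and 16%). Neither list had a member higher. Of protein-coding genes only 1.04% were higher in both arrays, so 0 higher is common for lists of this size. Of 15 non-peptidergic nociceptor markers 1 was lower (6.67%). This became 2 higher and 1 lower after centring, with the 11 identical markers left out. Of 22 synaptic adhesion genes 1 was higher, Slitrk6 (4.55%, against 2.94% of all genes), and 0 lower. These counts became 1 and 4 under quantile normalization, with the 17 identical genes left out.

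Peptidergic nociceptor markers were lower in 4 of 10 (40%, against 6.57% of all genes and 15.97% of the brightest sixth), with 0 higher and 6 identical. Gal, an injury-induced neuropeptide, read 95063, 87819 and 71213 units (−0.11 and −0.42). Gfra3, the artemin receptor, had −0.28 and −0.14, and Adcyap1, a neuropeptide, −0.15 in both. Of 27 injury and regeneration genes 7 were lower (25.9%, against the same shares) and 0 higher. After centring 6 were lower and 2 higher, with the 15 identical genes left out. Gpr151 (−0.06 and −0.38), like Gal, was further below control with the IgG. Atf3, the injury transcription factor, was identical on all arrays at 22305 units. The channel lists were close to the 6.57% of all genes: 1 of 15 transduction channels, 1 of 10 sodium channels, 2 of 23 potassium channels and 1 of 13 calcium channels were lower in both (6.67%, 10%, 8.70% and 7.69%), and 0 were higher. Trpv1 and Tac1 were identical on all arrays, and Scn9a differed only with SEMA3E alone (−0.03). Of 8 sodium pump and FXYD genes 5 were lower in both (62.5%, against 15.97% of the brightest sixth), led by Fxyd7 and Atp1b2 (−0.26 in both). The lists were chosen with earlier results of these data known, and Fxyd7 is itself among the lowest named genes. The share of 62.5% is therefore no independent evidence.

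Satellite glial markers were lower in 5 of 17 (29.4%, against 6.57% of all genes and 8.43% of genes of similar brightness). In that list 1 was higher (5.88%, against 2.94% of all genes). Besides Gpr37l1 the lower ones were Kcnj10, the potassium channel of these glia (399, 337 and 273 units), Fbln5 (2300, 1897 and 1873), Atp1b2 (220, 183 and 183) and S100b (−0.06 and −0.13). The summed level of the list was 47432 units in control, 44743 with SEMA3E and 46585 with the IgG, so it did not follow these members in the last array. Schwann and myelin markers had 1 lower, Pmp2, and 1 higher, Gldn, of 17 (5.88% each, against 6.57% and 2.94% of all genes). Of 16 macrophage markers 2 were higher (12.5%, against 2.94% of all genes), Lyz2 (0.19 and 0.11) and Clec4d, and 0 lower. Under quantile normalization 2 were higher and 2 lower, with the 8 identical markers left out. The summed level of the macrophage list was 5797, 6184 and 6008 units. S100a8, a protein of neutrophils and monocytes, read 292, 388 and 364 units, while 14 of 20 markers of other leukocytes, Ly6g and Mpo included, were below background. The part of cell composition in these values was not tested.

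Matrix genes were mixed. Of all genes 6.57% were lower in both arrays and 2.94% higher. Of 22 metalloproteinases and inhibitors 4 were lower (18.2%), Mmp13, Mmp2, Mmp14 (−0.02) and Adamts5. In that list 1 was higher (4.55%), Mmp12, a macrophage elastase (2263, 2554 and 2841 units). Of 30 structural matrix genes 3 were lower (10%), Col14a1 (−0.23 in both), Fbln5 and Lamb1 (−0.20 and −0.10), and 2 higher (6.67%), Tnc and Col12a1. The lower share is close to the 8.43% of genes of similar brightness. Ogn and Lum were lower (28.6%) and Bgn higher (0.03, 14.3%) among 7 small leucine-rich proteoglycans.

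Subunits of oxidative phosphorylation were lower in both arrays in 18 of 75 (24%) and higher in 0, none by a ratio of 5 to 4. By complex, 9 of 34 subunits of complex I were lower, 3 of 14 of complexes II and III, 4 of 13 of complex IV and 2 of 14 of complex V. The largest were Cox6b1 (48596, 41684 and 41216 units, mean −0.23) and Ndufa3 (1509, 1358 and 1274 units, mean −0.20). These genes are bright, and their share is to be read against the 15.97% of the brightest sixth. NRF2 targets ran the other way, with 5 of 24 higher (20.8%, against 2.94% of all genes) and 1 lower: Gsta4, Nqo1, Gsta2 (0.12 in both), the ferritin gene Fth1 (0.08 in both) and Gstp1 (0.006 in both) were higher and Gstm5 lower (−0.04 in both). Of 23 sterol and fatty acid synthesis genes, which are also bright, 5 were lower (21.7%, against 15.97% of the brightest sixth) and 1 higher. The lower ones were led by the desaturases Fads2 (29340, 23703 and 23218 units, mean −0.32) and Fads1 (mean −0.22). A second probe set of Fads2 gave −0.27. In the NRF2 list Gsta4 and Nqo1 are themselves among the highest named genes. It was chosen with earlier results of these data known, so its share is no independent evidence.

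Retinoic acid genes were lower in 5 of 17 (29.4%, against 6.57% of all genes) and higher in 0: the binding proteins Crabp2 and Crabp1 (18439, 17002 and 13764 units) and Rbp4 (147, 131 and 120 units), the reductase gene Dhrs3 (−0.18 in both) and Rdh10. Interferon-stimulated genes were lower in 4 of 22 (18.2%, against 6.57%), led by Ifitm3 (964, 770 and 650 units) and Cmpk2 (−0.27 and −0.25), and higher in 1. For both lists the base is all genes, not genes of similar brightness. Prostaglandin genes were higher in 2 of 15 (13.3%, against 2.94%), Ptgs2 and, by 0.03, Ptges. Il6 was identical on all arrays, and Ccl2 was higher by 0.01 in both. Over 52 lists, 876 distinct genes above background held 32 higher (3.65%) and 115 lower (13.1%) in both arrays. All genes had 2.94% and 6.57%, and protein-coding genes, which make up most of the lists, 1.04% and 6.36%. Wherever a list is set against 2.94%, that base includes small RNA genes, which were higher more often. The lists were chosen with earlier results of these data known, and some hold genes that are among the highest or lowest named, such as Ptgs2 and Crabp2. The shares of the lists are therefore no independent evidence.

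**Figure D3:**
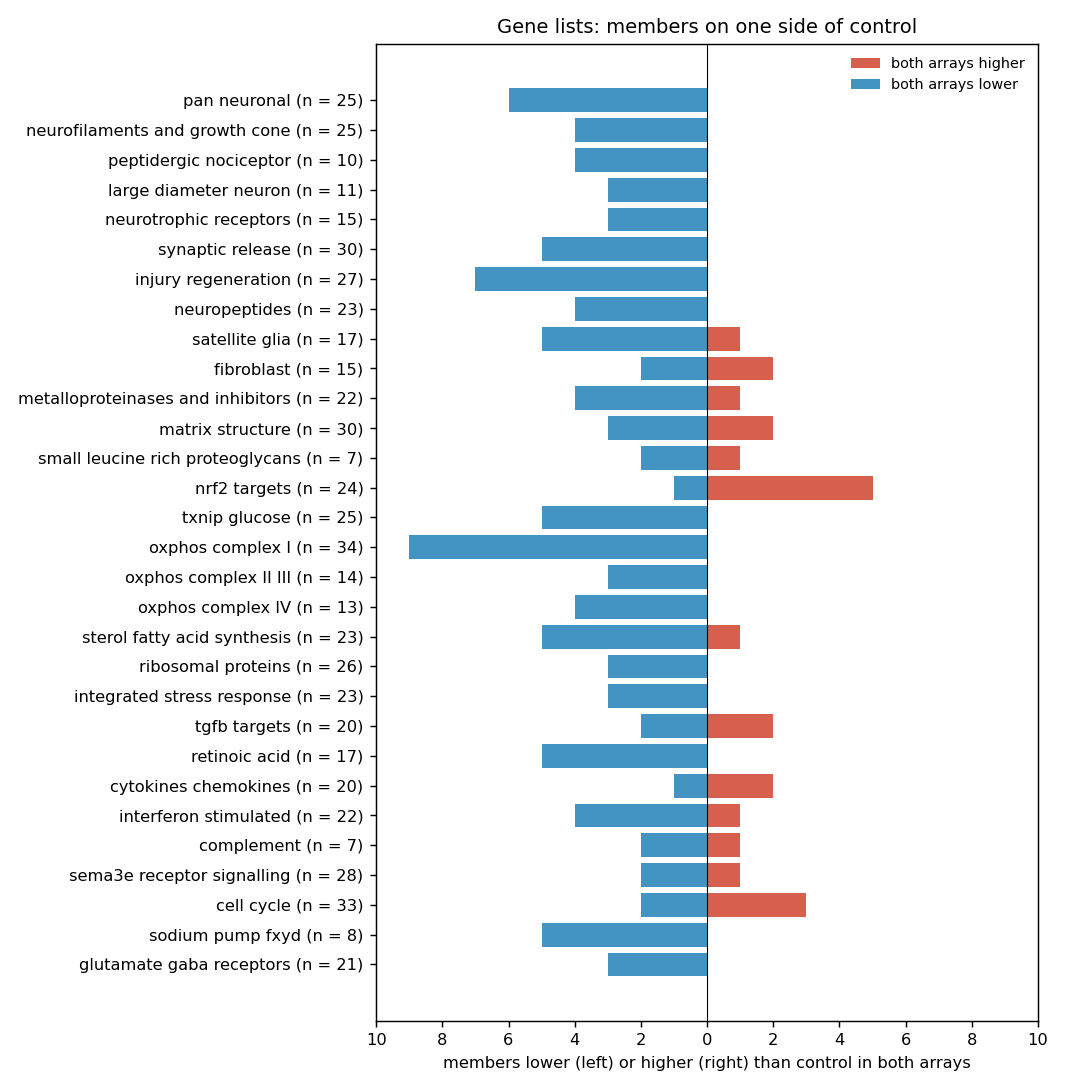
Members of each gene list that were lower (left, blue) or higher (right, red) than control in both SEMA3E-containing arrays, by any amount, for lists with at least 5 members above background (n) and at least 3 of them on one side or the other. Complex I has 9 members lower and 0 higher, and the NRF2 list 5 higher and 1 lower.

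Small RNA genes made up much of the rest. MicroRNAs are short RNAs that pair with messenger RNAs through a seed, bases 2 to 8, and reduce their output. Of 325 microRNA genes above background, 8 were higher and 8 lower by at least 5 to 4 in both arrays (4.92%), while in 9.23% the SEMA3E-containing arrays differed from each other by as much. The table of RefSeq microRNAs held 14 of these 16, and for Mir378c and Mir467f it gave another chromosome than the probe set's identifier. For Mir467f, the probe set whose identifier names the table's chromosome gave 0.01, against 0.64 from the brightest. The mature sequences below belong to the genes at least 1.5-fold from control in both arrays whose chromosomes matched, with the seed in capitals. A probe set on the gene does not say which arm, or whether the precursor, was measured.
mmu-miR-99a-5p: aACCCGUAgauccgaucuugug
mmu-miR-99a-3p: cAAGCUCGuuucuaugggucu
mmu-miR-340-5p: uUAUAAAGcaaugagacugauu
mmu-miR-340-3p: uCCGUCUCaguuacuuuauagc
mmu-miR-181b-5p: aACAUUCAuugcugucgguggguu
mmu-miR-181b-2-3p: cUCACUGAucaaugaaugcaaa
mmu-miR-691: aUUCCUGAagagaggcagaaaa

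Mir99a read 124 units in control, 29.2 with SEMA3E and 53.5 with the IgG (mean −1.62, gap 0.85), and its SEMA3E value lay below background. Mir340 read 510, 257 and 228 units (mean −1.07, gap 0.17). Mir181b-2 read 68.5, 148 and 137 units (mean 1.05, gap 0.11), and Mir691 115, 181 and 181 (mean 0.65). No seed was shared among the 14 genes past the threshold that the table holds. Mir100, whose 5p arm has the seed ACCCGUA of miR-99a-5p, was higher in both arrays (0.28), opposite to Mir99a. Mir181a-2 and Mir181d, with the seed ACAUUCA of miR-181b-5p, were identical on all arrays. Mir29b-1 shares AGCACCA with miR-29a-3p and was higher (0.17). Mir29a read 32.0 units in control, below background, 47.2 with SEMA3E and 60.6 with the IgG, and it was no longer past the threshold when values below the floor were set to it.

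The kinds of gene differed in which side was more common. Protein-coding genes were higher in both arrays in 127 of 12190 (1.04%) and lower in 775 (6.36%). Small nucleolar and Cajal body RNA genes, guides for the modification of other RNAs, were higher in 114 of 619 (18.4%) and lower in 26 (4.20%). Among genes not identical on all 3 arrays as deposited, both orders held under each scaling. After centring there were 474 and 723 for coding genes and 232 and 25 for nucleolar genes. The identical genes left out of the scaled counts were 10075 coding and 302 nucleolar. With them counted, centring would place more coding genes above control than below it. Small nuclear RNA genes were higher in 27 of 513 and lower in 14, which turned to 45 and 55 under quantile normalization. The arrays also went opposite ways in this kind: 46 were higher and 170 lower with SEMA3E alone, and 215 higher and 25 lower with the IgG. By at least 5 to 4 in both arrays, 7 small nuclear RNA genes were higher and 0 lower (1.36%). In 5.07% of this kind the SEMA3E-containing arrays differed from each other by as much. Pseudogenes, 144 higher and 280 lower in both, had 262 higher and 667 lower with SEMA3E alone and 496 and 410 with the IgG, and turned to 482 and 252 after centring and to 430 and 311 under a loess scaling added after the values were seen. Counts by kind were added at the same stage.

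**Figure D4:**
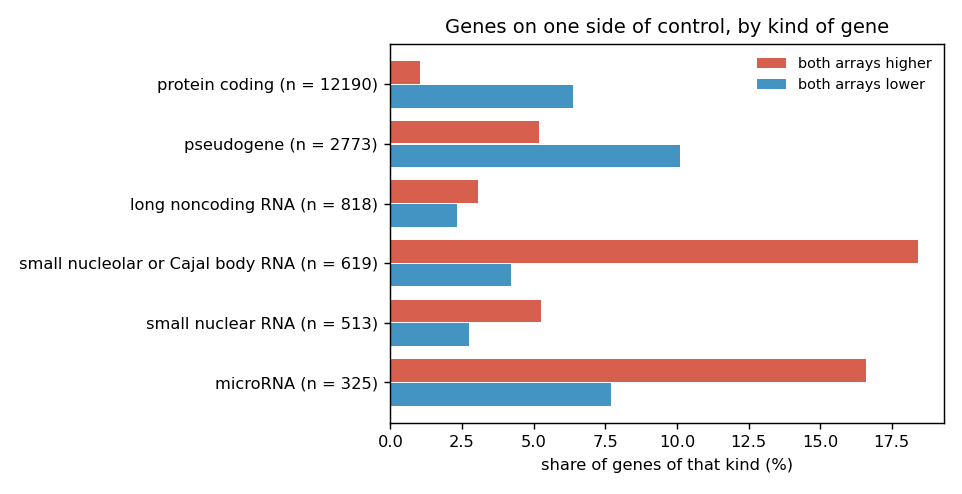
Share of genes of each kind (n above background, kinds with at least 300) that were higher (red) or lower (blue) than control in both arrays, in percent. Small nucleolar and Cajal body RNA genes have the longest red bar (18.4%), and protein-coding genes are lower in 6.36% and higher in 1.04%.

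Brightness moved with the lower side. From the dimmest to the brightest sixth of the genes, the share lower in both arrays was 2.21%, 2.75%, 3.64%, 6.43%, 8.43% and 15.97%, while the share higher stayed between 1.97% and 3.67%. Identical values made up 83.8% of the dimmest sixth and 50.8% of the brightest. The part of brightness in the list counts was not tested.

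**Figure D5:**
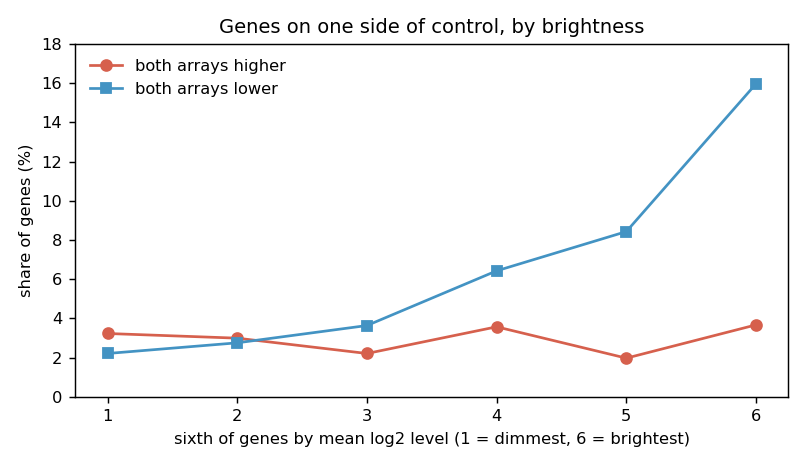
Share of genes higher (red) or lower (blue) than control in both SEMA3E-containing arrays, in percent, in sixths of the genes by mean log2 level. The lower share climbs from 2.21% to 15.97%, and the higher share stays between 1.97% and 3.67%.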

How the data were processed

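The intensities are those deposited by the authors. The submitters' processing notes name Affymetrix Expression Console, and for its version, the normalization and the build the entry is not given in the sources used here. Total RNA was labelled with the WT Pico kit, per the labels. Of 65956 probe sets, 30604 with 1 gene symbol were used (827 symbols updated by gene number), the brightest per gene, giving 30142 genes, of which 17653 lay at or above the floor, the 95th percentile of 492 vomeronasal receptor genes. The mean of log2(value + 1) of the SEMA3E-containing arrays minus control was taken. Their number limits the precision.

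The members, lists, thresholds and alternatives were chosen with earlier results of these data known. Named genes are the 20 highest and 20 lowest by mean difference with both arrays on one side, leaving out predicted, RIKEN, microRNA and other small RNA genes, pseudogenes, receptor and antigen receptor genes; microRNA genes past 5 to 4; up to 4 leading members per list; and 12 genes named always, among them Plxnd1. Others are named after their values were seen. Alternatives were an offset of 16, centring, quantile and loess scaling, other floors, the mean of probe sets, and each SEMA3E-containing array alone. Planned loess used 3 robustness rounds and changed nothing, because its curve lay at 0; a version without those rounds was added after that was seen. Scripts were tested on simulated data, with Python 3.11.15, numpy 2.4.6, pandas 2.3.3, statsmodels 0.14.6 and matplotlib 3.10.9. Sequences are from RefSeq tables of GRCm38.p6.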

Additional observations from a re-analysis of the deposited data

Results flagged for a closer look

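Probe sets without exactly 1 gene symbol were outside the comparison, and 15401 of them lay above the floor. In these, both SEMA3E-containing arrays were at least 1.5-fold higher than control in 34 (0.221%) and at least 1.5-fold lower in 7 (0.0455%). Among the genes with a symbol the counts were 5 and 8. What these probe sets measure was not analysed here.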

How the results depend on the processing

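The 58 genes past 5 to 4 were the more stable result: 55 were shared after centring, 56 after quantile normalization, 50 with an offset of 16 and 49 with the floor at percentile 99. Ifitm3 was lost under the first 3. The scalings moved the median by 0.0062 or less, so genes past 0.322 had little room to be lost. No setting replaced the single control array, so this stability says nothing about it. The counts by any amount moved. Genes higher in both arrays numbered 519 as reported, 1571 after centring and 931 without a floor. Genes lower in both numbered 1160 as reported and 2002 after quantile normalization. Counts by any amount under centring, quantile or loess scaling leave out genes identical on all 3 arrays as deposited. The planned loess left every count as it was. Loess without robustness rounds, chosen after seeing that, gave 1287 higher and shared 55 of the 58. Genes at least 1.5-fold lower numbered 5 in place of 8 with the floor at percentile 99, where Mir99a, Mir669j and Snora2b are no longer counted. The cause of the other moves was not tested.

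With each SEMA3E-containing array left out in turn, a gene needs only 1 array past the threshold, so counts can only grow: to 59 to 60 higher and 70 to 96 lower at 5 to 4, 11 to 13 and 17 to 25 at 1.5-fold, and 1097 to 1340 and 2011 to 2180 by any amount. Without the SEMA3E array (the IgG array alone) the lower counts at 5 to 4 and 1.5-fold were 96 and 25. Leaving out the control array leaves no comparison. Of 177 named members, 2 changed sign after centring, Farp2 and Kcnc4, and 2 in the added loess, Farp2 and Nefh. No paired analysis was possible because each medium has 1 array. With no replicates, the depth of these data limits every difference, and dim genes near the floor have the least support.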
